A study of Mus musculus with 4 samples.

Results

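The proteasome genes of the mouse are described here in the embryonic outflow tract, the vessel-like end of the heart from which the aortic and pulmonary roots form. Members were chosen by symbol alone, as every gene of the count table named Psma, Psmb, Psmc, Psmd, Psme, Psmf or Psmg followed by a number. The rule found 48 genes among 45706, and no measured value entered it, although earlier results of these data were known when it was chosen. They were compared between wild-type (WT) embryos and embryos labelled Sox17eKO, both of strain C57BL/6 at embryonic day 12.5. In Sox17eKO the endothelial transcription factor gene Sox17 was deleted by a Cre recombinase driven by an Nfatc1 enhancer, in aortic root endothelium per the labels. The deletion therefore concerns a part of the endothelium, while the RNA came from whole outflow tracts. Each genotype had 2 libraries and each library pooled 10 hearts, from 20 mice per genotype. The comparison asks which genes respond to the loss of SOX17.

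The proteasome is the protease that degrades proteins tagged with ubiquitin in the cytoplasm and nucleus. Its barrel-shaped core stacks rings of alpha subunits, which gate the entrance, around rings of beta subunits, some of which carry the proteolytic sites. A regulatory particle caps the barrel. Its base holds a ring of ATPases that unfold and feed in the substrate, and its lid holds the subunit that removes ubiquitin. Dedicated chaperones assemble both parts, and separate activators can replace the regulatory particle. The subunits are made in nearly every cell, and in muscle the complex takes part in the turnover of sarcomere proteins. Most of the genes are short.

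Reads assigned to genes numbered between 8113463 and 21883956 per library, and 36706 to 90984 of them per library fell on the 48 proteasome genes. Sox17, the targeted gene, was at 6.05 and 6.83 TMM-scaled CPM (reads scaled to library size with edgeR's TMM factor) in the WT libraries and at 2.76 and 2.82 in the Sox17eKO libraries, a log2 ratio of Sox17eKO over WT of -1.19 (standard error 0.23, edgeR adjusted p = 0.00574). Without WT replicate 2 that adjusted p was 0.0786. Markers of cardiomyocytes, endothelium, smooth muscle, mesenchyme and epicardium were all detected. Of uniquely placed reads, 20.4% and 22.2% were counted in no annotated feature in WT and 29.5% and 34.1% in Sox17eKO. Whether this share has a part in the results below was not tested. Of 16570 genes tested, 684 were higher and 202 lower in Sox17eKO. With scaling by library size alone the split was 769 higher and 111 lower.

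Of the 48 genes, 46 had enough reads to be tested. Psma4 and Psma6, which encode subunits of the alpha ring, fell in Sox17eKO, and no proteasome gene rose (edgeR adjusted p under 0.05 counted as called). The share called lower over all genes tested was 1.22% and the share called higher 4.13%. The fitted level was lower in Sox17eKO for 41 of the 46, against 51.8% of all genes tested. For 29 of the 46 both Sox17eKO libraries lay below both WT libraries, against 26.2% of all genes, and for 1, Psme4, both lay above, against 26.5%. An unadjusted edgeR p under 0.05 was reached by 17 of the 46, all lower, where 8.71% of all genes were lower at that p. The median log2 ratio of the 46 was -0.14, and that of all genes tested was -0.01. With scaling by library size alone it was -0.11, with 38 of the 46 lower. The untested genes were Psmb9 and Psmb11, described with the inducible subunits below.

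Summed over the 48 genes, the level was 4481 and 4644 TMM-scaled CPM in the WT pools and 4140 and 4138 in those of Sox17eKO. Both Sox17eKO sums lay below both WT sums, and their mean was 90.7% of the WT mean. In whole tissue, fewer cells of a type and less RNA per cell cannot be told apart, so a lower summed level does not say which of them differed. Single genes ranged in WT from a mean of 0.592 (Psmb8) to one of 245 (Psmc3) among those tested, as the plot of levels by library shows.

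**Figure D1:**
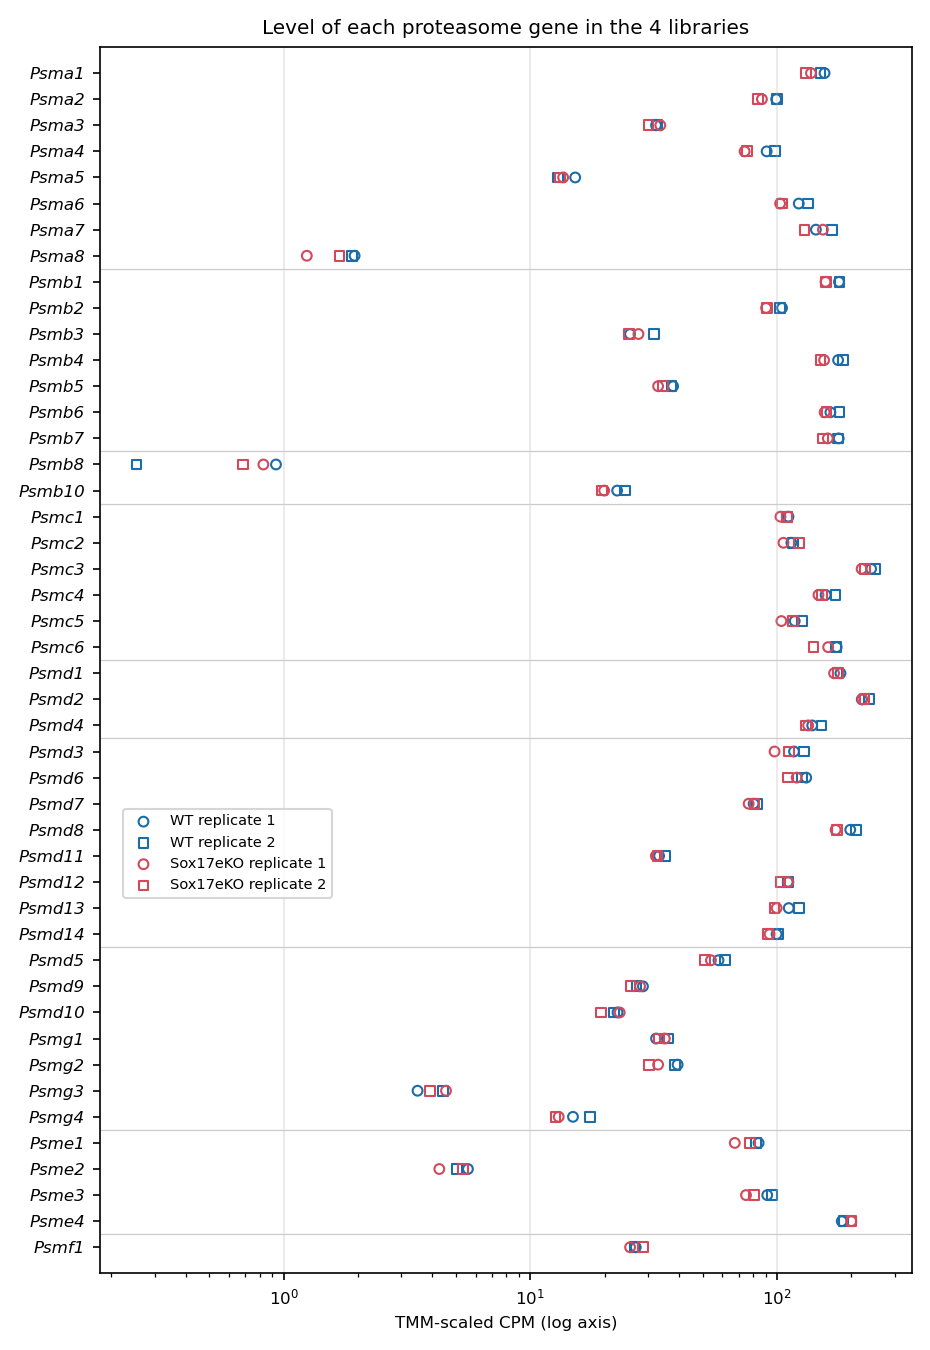
TMM-scaled CPM (log axis) of the 46 tested proteasome genes in the 4 libraries, with WT in blue, Sox17eKO in red, circles for replicate 1 and squares for replicate 2; grey lines separate the roles. For 29 genes both red symbols lie left of both blue symbols, and for Psme4 both lie right of them.

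The 8 alpha genes build the rings that close the ends of the barrel, except Psma8, which stands in for an alpha subunit in the germ cells of the testis. Psma4 was at 90.8 and 98.4 TMM-scaled CPM in WT and at 73.9 and 75.5 in Sox17eKO. Its Sox17eKO libraries lay close together and well below both WT libraries. Sox17eKO stood at 79.1% of the WT fit, a log2 ratio of -0.34 (standard error 0.08, edgeR adjusted p = 0.0177). Psma6 was at 122.5 and 133.3 TMM-scaled CPM in WT and at 103 and 105 in Sox17eKO, again without overlap. Its log2 ratio was -0.30 (standard error 0.08, edgeR adjusted p = 0.0302), which is 81.5% of the WT level. On mm10, Psma4 (ENSMUSG00000032301) lies on chromosome 9 from 54950790 to 54958030 on the plus strand, where exons of the opposite-strand gene AY074887 overlap its exons by 114 bp. Psma6 (ENSMUSG00000021024) lies on chromosome 12 from 55384222 to 55418454 on the plus strand with no other exon over its own.

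Both calls depended on single libraries. Among the fits with a library left out they held only without WT replicate 1, at log2 ratios of -0.39 for Psma4 and -0.36 for Psma6. Without WT replicate 2 the log2 ratios were -0.28 for Psma4 and -0.24 for Psma6 (edgeR adjusted p = 0.192 and 0.256). Without Sox17eKO replicate 1 the adjusted p were 0.113 and 0.172, and without Sox17eKO replicate 2 they were 0.0527 and 0.0996. With a smooth trend on exonic length and gene span removed from each library they were 0.127 and 0.278, at log2 ratios of -0.24 and -0.18. The Psma6 call also ended with DESeq2 (adjusted p = 0.0507), limma-voom (0.0572) and library size scaling in edgeR (0.0560).

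The other alpha genes had log2 ratios between -0.37 and -0.03, and none passed. Psma2 was at 99.3 and 99.8 TMM-scaled CPM in WT and at 86.9 and 83.5 in Sox17eKO (log2 ratio -0.23, edgeR adjusted p = 0.0909). The WT libraries differed by less than 1 CPM there, and the groups did not overlap. Psma1 was at 155.9 and 150.04 in WT and 137.4 and 131.3 in Sox17eKO, also without overlap. Psma7 was at 143.8 and 166.7 in WT and at 153.6 and 129.3 in Sox17eKO, so its groups overlapped, as did those of Psma3 and Psma5. Psma8 was covered by 25 and 15 reads in WT and by 18 and 37 in the deeper Sox17eKO libraries, or between 1.24 and 1.94 TMM-scaled CPM. Its log2 ratio of -0.37 had a 95% interval from -1.11 to 0.38. The 8 genes together reached 662 and 696 TMM-scaled CPM in WT and 603 and 570 in Sox17eKO.

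Of the 7 constitutive beta genes none passed, all 7 had a lower fitted level in Sox17eKO, and for 6 the groups did not overlap. Over all genes tested, 51.8% had a lower fitted level and 26.2% had both Sox17eKO libraries below both WT libraries. Among protein-coding genes of up to 2581 bp of exon, 77.7% had a lower fitted level. The proteolytic sites belong to Psmb5, Psmb6 and Psmb7, with chymotrypsin-like, caspase-like and trypsin-like activity in that order. Psmb5 was at 37.9 and 37.3 TMM-scaled CPM in WT and at 33.0 and 34.6 in Sox17eKO, a log2 ratio of -0.16 with a 95% interval from -0.36 to 0.05. Psmb6 was at 164.7 and 179.3 in WT and at 156 and 159 in Sox17eKO (log2 ratio -0.13, interval -0.29 to 0.04). Psmb7 was at 177.9 and 177.2 in WT and at 160.7 and 153.4 in Sox17eKO (log2 ratio -0.18, interval -0.33 to -0.02, edgeR adjusted p = 0.177). The Psmb5 interval holds both 0 and the value of Psma6, so these data do not tell a fall of that size from no difference. The catalytic genes therefore had the sign of the 2 called alpha genes, without passing the test.

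Among the structural beta genes, Psmb4 had the smallest adjusted p (0.0644, edgeR) at 176.9 and 184.6 TMM-scaled CPM in WT and 155.2 and 150.1 in Sox17eKO, a log2 ratio of -0.24. Psmb1 stood at 178.4 and 179.1 in WT and at 157.4 and 158.1 in Sox17eKO, so the libraries of each genotype differed by less than 1 CPM (log2 ratio -0.18, edgeR adjusted p = 0.164). Psmb2 was at 104.9 and 103.1 in WT and at 90.3 and 90.8 in Sox17eKO (log2 ratio -0.20, edgeR adjusted p = 0.130). Psmb3 was the beta gene whose groups overlapped, at 25.4 and 31.6 in WT and 27.4 and 25.2 in Sox17eKO. The 7 genes summed to 866 and 892 in WT and to 780 and 771 in Sox17eKO.

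Psmb8, Psmb9 and Psmb10 encode the catalytic subunits that replace the constitutive ones in the immunoproteasome, which immune cells and interferon-treated cells assemble for antigen processing, and Psmb11 encodes a thymus-specific one. Psmb10 was by far the most abundant of them, at 22.5 and 24.2 TMM-scaled CPM in WT and 19.9 and 19.5 in Sox17eKO. Its groups did not overlap, and its log2 ratio of -0.24 did not pass (edgeR adjusted p = 0.248). Psmb8 had 12 and 2 reads in WT and 12 and 15 in Sox17eKO, all below 1 TMM-scaled CPM, and a log2 ratio of 0.17 with an interval from -1.002 to 1.338. Without WT replicate 2, the library with 2 reads, the value was -0.32, and without WT replicate 1 it was 1.53. Psmb9 had 4 and 0 reads in WT and 2 and 12 in Sox17eKO, and Psmb11 had 0 reads in every library, which allows up to 3 per library by counting error alone. Psmb9 shares 212 bp of exon with Tap1 on the opposite strand, and whether counting used strand is not given in the sources used here. In all, exons of 11 members overlap a gene on the opposite strand and those of 3 overlap one on the same strand, Psmb5, Psmd1 and Psmg3.

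Per kilobase of the longest annotated transcript, Psmb10 reached 17.8 ± 0.901 TMM-scaled CPM in WT (mean ± SD, n = 2), below Psmb5 at 41.9 ± 0.477, Psmb7 at 153.1 ± 0.415 and Psmb6 at 215 ± 12.9. Psmb8 stood at 0.364 ± 0.294 on that scale. Of 9 genes of antigen presentation, 8 were tested and none passed. B2m, the light chain of class I molecules, was at a mean of 73.8 TMM-scaled CPM in WT and 67.4 in Sox17eKO, and Tap1, a peptide transporter, at 1.34 and 1.13. Of 17 macrophage and leukocyte markers 13 were tested and none passed, and their summed level was 146 and 153 TMM-scaled CPM in WT and 138 and 135 in Sox17eKO. The T-cell marker Cd3e was at 0 reads in every library and the B-cell marker Cd79a had 1 read in all. The part of leukocytes in the Psmb8, Psmb9 and Psmb10 levels was not tested.

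None of the 6 ATPase genes of the base, whose subunits pull the substrate into the core, passed. All 6 had a lower fitted level, against 51.8% of all genes tested. For 5 the Sox17eKO libraries lay below WT without overlap, against 26.2% of all genes. Psmc3 had the highest level of all members in WT before correction for length, at 240.7 and 249.9 TMM-scaled CPM, and stood at 220.3 and 227.8 in Sox17eKO. Psmc6 had the lowest value of the 6 (log2 ratio -0.21, edgeR adjusted p = 0.138), at 174.6 and 174.1 in WT and 161.2 and 140.5 in Sox17eKO. Its Sox17eKO libraries differed from each other by more than the higher of them differed from WT. Psmc2 was level, at 114.4 and 116.3 in WT and 106.2 and 122.7 in Sox17eKO (log2 ratio -0.01, interval -0.18 to 0.16). Psmc1, Psmc4 and Psmc5 had log2 ratios of -0.05, -0.14 and -0.15.

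The 3 base subunits without ATPase activity had a median log2 ratio of -0.04. Psmd1 and Psmd2, the large scaffold proteins of the base, were at 180.9 and 175.8 and at 220.7 and 235.9 TMM-scaled CPM in WT. In Sox17eKO they stood at 170.4 and 176.7 and at 222.05 and 226.6, overlapping with WT in both cases. Their log2 ratios were -0.04 (interval -0.20 to 0.12) and -0.02 (interval -0.19 to 0.14). Psmd4, a receptor for ubiquitin chains, had a value of -0.13 and no overlap between groups (edgeR adjusted p = 0.340). Psmd1 has the second longest exonic length of the tested members, 7265 bp, and exons of Htr2b and Gm21972 overlap it.

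In the lid, none of the 8 genes passed. All 8 had a lower fitted level, against 51.8% of all genes tested, and 6 lay lower without overlap, against 26.2%. Psmd13 was lowest, at 111.6 and 123 TMM-scaled CPM in WT and 99.7 and 97.7 in Sox17eKO (log2 ratio -0.25, edgeR adjusted p = 0.0709). Psmd8 followed among the lid genes with the next smallest p, at 198.2 and 208.7 in WT and 172.9 and 175.7 in Sox17eKO (log2 ratio -0.22, edgeR adjusted p = 0.0918). Psmd3 was at 117.3 and 128.3 in WT and at 97.8 and 111.9 in Sox17eKO. Psmd14, the metalloprotease that cuts ubiquitin off the substrate, was at 99.7 and 101.5 in WT and 93.3 and 92.0 in Sox17eKO, with a log2 ratio of -0.12, short of the threshold (edgeR adjusted p = 0.392). Psmd7, the partner it binds, and Psmd12 overlapped between the groups at log2 ratios of -0.05 each. Psmd6 did not overlap (-0.16, edgeR adjusted p = 0.244) and neither did Psmd11 (-0.07, 0.762). Summed over the lid the level was 882 and 916 in WT and 804 and 805 in Sox17eKO.

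The 7 assembly chaperones ranged from -0.32 to 0.11 in log2 ratio, and none passed. Psmg1 and Psmg2 encode partners that form a dimer and help the alpha ring close, yet their values differed. Psmg2 was at 39.6 and 38.7 TMM-scaled CPM in WT and 33.0 and 30.4 in Sox17eKO (log2 ratio -0.31, standard error 0.10, edgeR adjusted p = 0.0749). Psmg1 was at 32.3 and 36.1 in WT and 35.1 and 33.2 in Sox17eKO, with a log2 ratio of 0.00 and an interval from -0.21 to 0.22. The difference between these genes was not tested. Psmg4, which has the shortest exonic length of all members at 555 bp, was at 14.9 and 17.5 in WT and 13.03 and 12.6 in Sox17eKO (log2 ratio -0.32, edgeR adjusted p = 0.172). Its partner Psmg3 was at 3.49 and 4.43 in WT and 4.55 and 3.91 in Sox17eKO, with an interval from -0.41 to 0.63. The base chaperones Psmd5, Psmd9 and Psmd10 had log2 ratios of -0.19, -0.07 and -0.08.

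None of the 4 activators passed, and their signs differed. Psme4, a large single-chain activator, was at 183 and 186 TMM-scaled CPM in WT and at 200.3 and 200.6 in Sox17eKO. It was the 1 tested member whose Sox17eKO libraries both lay above WT, and its log2 ratio of 0.12 did not pass (interval -0.04 to 0.28, edgeR adjusted p = 0.378). Psme3, the nuclear activator, was at 91.3 and 95.3 in WT and at 74.9 and 80.5 in Sox17eKO, a log2 ratio of -0.26 that missed the threshold (edgeR adjusted p = 0.0608). Psme1 and Psme2 encode the alternating subunits of the interferon-inducible cytoplasmic activator. Psme1 was at 84.2 and 82.4 in WT and 67.4 and 78.0 in Sox17eKO (log2 ratio -0.19, edgeR adjusted p = 0.196). Psme2 was at 5.58 and 5.06 in WT and 4.28 and 5.32 in Sox17eKO, with overlap and an interval from -0.60 to 0.31. Psmf1, an inhibitor of the core in the test tube that also acts as a transport adaptor, was at 26.8 and 26.4 in WT and at 25.4 and 28.6 in Sox17eKO.

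**Figure D2:**
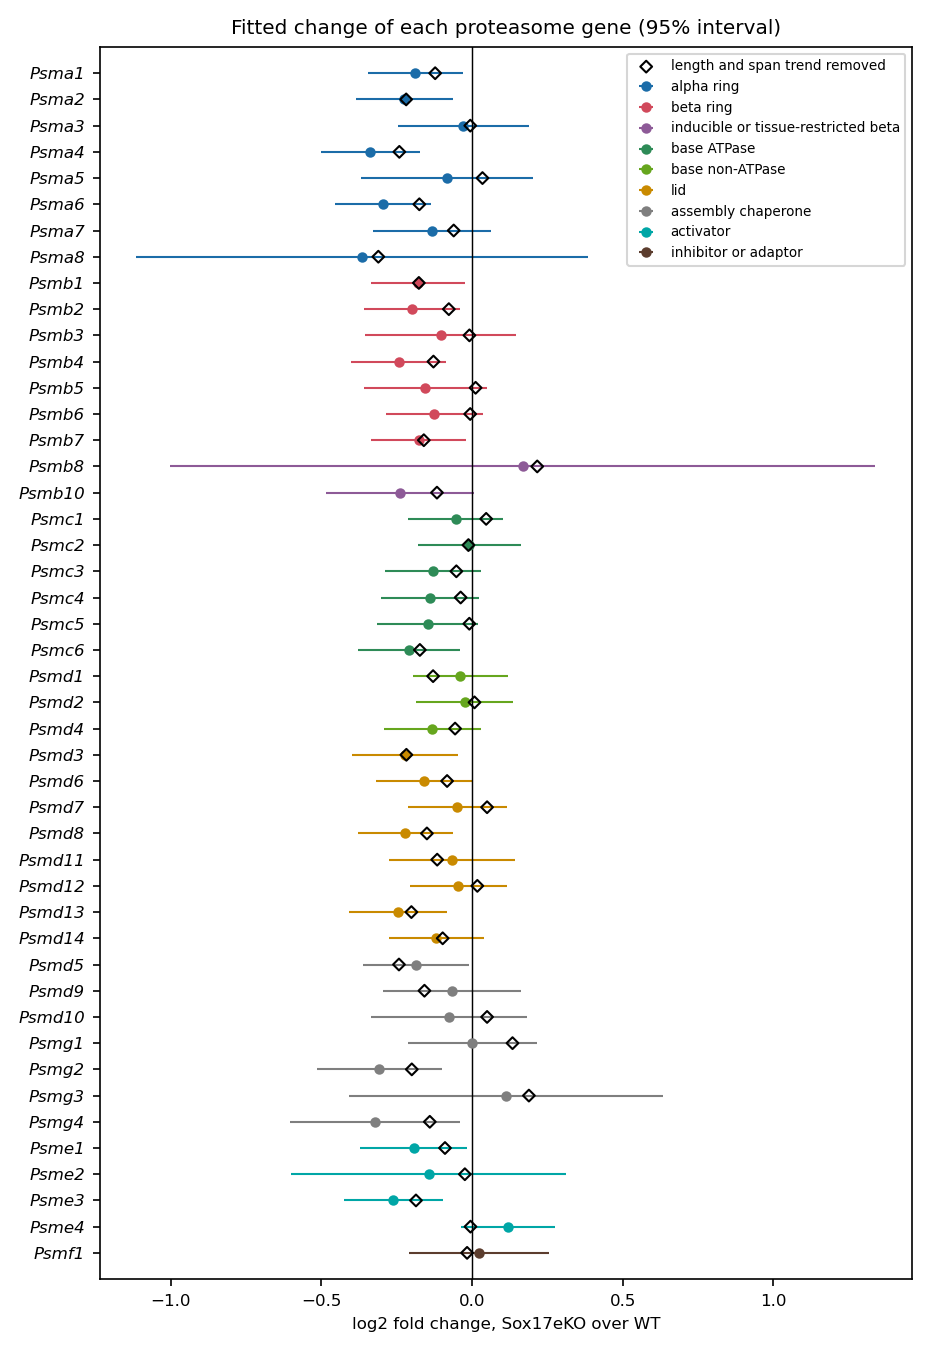
Fitted log2 ratio of Sox17eKO over WT for the 46 tested proteasome genes, ordered and coloured by role, with 95% intervals from edgeR; open diamonds give the value after a smooth trend on exonic length and gene span was removed. Of the filled points 41 lie left of 0, and of the diamonds 36 do.

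Outside the symbol rule, 34 of 35 pathway genes were in the table and none passed, against 5.35% called over all genes. Their median log2 ratio was -0.08 and 24 of the 34 had a lower fitted level, against 51.8% of all genes tested. Sem1, a small lid subunit, was at 159 TMM-scaled CPM in WT and 135 in Sox17eKO (log2 ratio -0.23, edgeR adjusted p = 0.0701). Pomp, the chaperone on which the beta ring assembles, had a value of -0.24 (edgeR adjusted p = 0.0821). Nfe2l1, the transcription factor that raises proteasome genes when proteasome activity is short, was at 116.7 TMM-scaled CPM in WT and 117.3 in Sox17eKO, a log2 ratio of 0.01. Adrm1, a ubiquitin receptor of the base, had a value of -0.08. Ecpas and Ddi2, which encode a proteasome-binding scaffold and the protease that activates the Nfe2l1 product, had values of 0.18 and 0.16, short of the threshold (edgeR adjusted p = 0.181 and 0.231), and both have long transcripts (11447 and 9553 bp of exon).

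The members were then set against genes of their own length. The 13361 protein-coding genes tested were put in 5 groups of nearly equal size by exonic length, the total length of their annotated exons. From the shortest group to the longest, the median log2 ratio was -0.14, -0.08, -0.03, 0.04 and 0.16. The members in those groups numbered 20, 15, 5, 5 and 1, so 35 of the 46 fell among the shorter groups, up to 3877 bp. In the shortest group the 20 members had a median of -0.15, close to the -0.14 of all 2673 genes there, and 19 of the 20 had a lower fitted level against 77.7% of those genes. Both called members belong to it, where 2.62% of protein-coding genes were called lower. In the second group the median was -0.16 over 15 members and -0.08 over all genes. In the third the medians were alike at -0.03 over 5 members and -0.03 over all genes, and in the fourth they were -0.07 over 5 members and 0.04 over all genes.

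Among the members, too, genes with more exonic length tended to have the higher values, with exceptions. Spearman's rho between exonic length and log2 ratio was 0.32 over the 46 members and 0.46 over the 13361 protein-coding genes. Over the members it was 0.23 with the length of the longest transcript and 0.08 with gene span. Genes are not independent replicates and share the same 4 libraries, so these values are descriptions. The longest members, Psme4 (8382 bp), Psmd1 (7265 bp) and Psmd9 (7248 bp), had log2 ratios of 0.12, -0.04 and -0.07. The shortest, Psmg4 (555 bp), Psmb5 (899 bp) and Psmb2 (1204 bp), had values of -0.32, -0.16 and -0.20. After a smooth trend on exonic length and gene span was removed, rho with exonic length over the members was -0.25. Their median was then -0.08 against -0.02 for all protein-coding genes tested, and 36 of the 46 lay below 0 against 54.9%. No member was called in that fit, where 0.531% of protein-coding genes were called lower and 0.584% higher. Psme4 then had a value of -0.01 and Psmb5 one of 0.01.

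Ribosomal protein genes, another set of short housekeeping genes, also had mostly lower fits before that step. Of 77 tested, 1 was called lower, where 1.22% of all genes tested were. A lower fitted level was found for 56 of the 77 (72.7%), with a median of -0.11. That share was 89.1% for the proteasome members, 51.8% for all genes tested and 77.7% for protein-coding genes of up to 2581 bp of exon. With the trend removed their median was 0.02, with 45.5% below 0, while that of the proteasome members was -0.08. Whether the sets differ was not tested. Their median exonic lengths were 1781 and 2804 bp. With a trend on the GC content of the transcript removed instead, 15 of the 46 members were called lower, among them Psma4 and Psma6, at a median of -0.15. In that fit 3.71% of the 13361 protein-coding genes were called lower. What sets the trends on length and GC in these libraries was not tested.

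**Figure D3:**
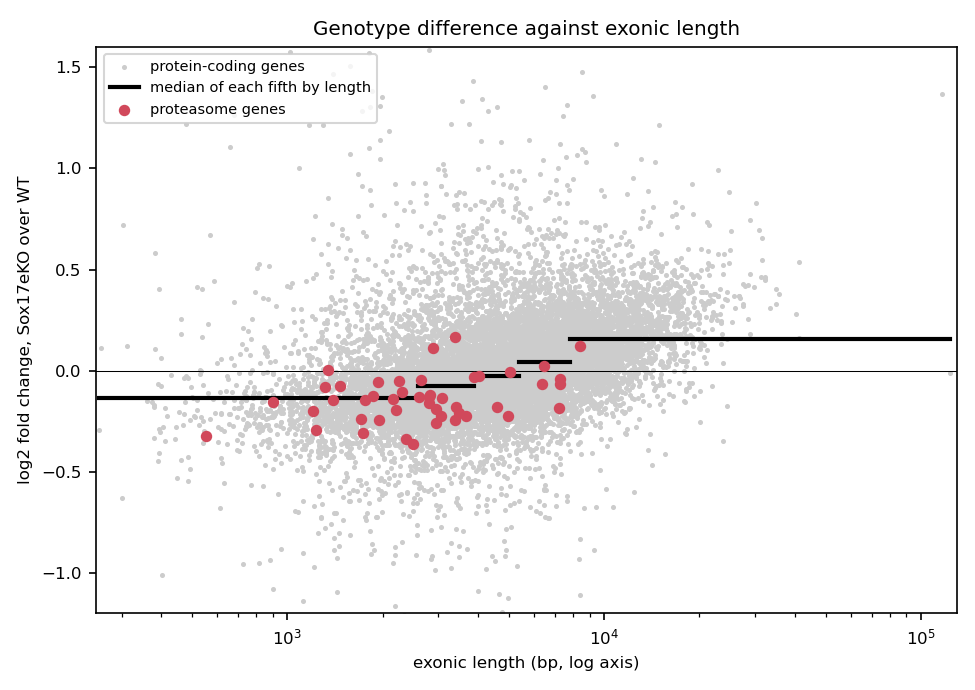
Log2 ratio of Sox17eKO over WT against exonic length (log axis) for protein-coding genes in grey and tested proteasome genes in red; black bars are the medians of 5 groups by length, and 26 protein-coding genes beyond -1.2 or 1.6 are not drawn. The bars rise from -0.14 to 0.16, and the member farthest right, Psme4, is at 0.12.

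Levels were next compared between subunits per kilobase of the longest annotated transcript. Each alpha and beta subunit enters the core in equal number. Their RNA levels are set side by side as a description, since RNA need not follow protein number and no protein was measured. Over the 14 constitutive core genes the WT level ran from 11.3 TMM-scaled CPM per kilobase for Psma5 and 11.4 for Psma3 to 215 for Psmb6. The 5 lowest were Psma5, Psma3, Psma2 (34.2), Psmb3 (37.2) and Psmb5 (41.9), and the SD over the WT libraries was 5.78 for Psmb3 and at most 1.31 for the other 4. Psma5 and Psma3 do not differ beyond that spread, and Psmb3 differs from neither Psma2 nor Psmb5 beyond its own. Apart from Psma4 at 81.2, the others stood at 90.7 (Psmb1) or above. The order depends on the length used. Per kilobase of all annotated exons, Psmb5 (41.9) lay above Psmb1 (38.9) and Psma4 (39.9), and Psmb6 (91.9) lay below Psma6 (103.7) and Psmb4 (92.6).

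Of these 5, all but Psma2 share a sizeable part of their sequence with other loci of the genome. Retrocopies of spliced messenger RNA, called processed pseudogenes, are common for housekeeping genes, and reads that match more than 1 place are not counted as unique. For each member the share of 50-base stretches of its longest transcript that also occur in annotated transcripts of other loci was computed. It was 0 for 29 of the 48 members and at least 10% for 10. Among the core genes it was 55.8% for Psmb3, 54.5% for Psma5, 50% for Psmb5, 25.6% for Psma4 and 22.02% for Psma3. These 5 had a median level of 37.2 TMM-scaled CPM per kilobase in WT, and the 9 core genes under 10% had a median of 127. Spearman's rho between the share and the level was -0.75 over the 14 genes, a description across genes. Psma2, at 3.53%, was low without such a share. Psmb6 (2.67%) and Psmb1 (2.5%) share about as little and stood at 215 and 90.7 TMM-scaled CPM per kilobase in WT. Only exact stretches count, so a low share does not show that a near copy is absent. Psma2 (2911 bp) and Psma3 (2846 bp) have the longest transcripts of the 14, which lowers their levels per kilobase. Before division by length, Psma2 was at a WT mean of 99.5 TMM-scaled CPM, beside 104 for Psmb2, and Psma3 at 32.5.

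The stretches that members share with a copy are shown by 80-base windows, chosen where the sequences are nearly identical, of the coding sequence of 2 members above the same stretch of their closest copy, from GENCODE transcripts on GRCm38. Capitals mark the letters that differ. Gm8394 is a processed pseudogene on chromosome 10 (85313488 to 85314439, plus strand) and Gm3375 one on chromosome 7 (3181093 to 3181888, plus strand).
Psma5, coding bases 287 to 366: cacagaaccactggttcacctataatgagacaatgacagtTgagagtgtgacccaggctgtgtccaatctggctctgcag
Gm8394: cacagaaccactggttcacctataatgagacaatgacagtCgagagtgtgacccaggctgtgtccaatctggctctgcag
Psmb5, coding bases 620 to 699: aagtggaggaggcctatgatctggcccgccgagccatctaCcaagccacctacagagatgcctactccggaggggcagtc
Gm3375: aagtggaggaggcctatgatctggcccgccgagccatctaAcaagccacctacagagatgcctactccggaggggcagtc
In both of these windows 1 letter of 80 differs. Compared position by position with no gaps over the whole coding sequence, Psma5 and Gm8394 were identical at 98.9% of 723 bases and Psmb5 and Gm3375 at 75.8% of 792, with longest identical runs of 248 and 194 bases.

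HTSeq's tally of alignments with several possible places held between 72.5% and 79.0% of each library's total in the table. Several copies were counted with more reads than the subunit gene itself. Gm8394 had 591 and 383 reads in WT and 561 and 847 in Sox17eKO, while Psma5 had 196 and 102 and then 197 and 291. Gm13835, a processed pseudogene of Psma3, had 1290 and 747 reads in WT against 417 and 258 for Psma3. Psme2b, a protein-coding copy of Psme2, had 519 and 326 reads in WT and 480 and 682 in Sox17eKO, against 72 and 40 and then 62 and 117 for Psme2. The closest copies of Psmb3 and Psmb5 were not among the genes of the count table, so no reads of theirs could be compared. Which locus these reads came from was not tested, and read length is not given in the sources used here. With the reads of the closest copy added, a step chosen after seeing the data, the WT level per kilobase was 49.4 ± 0.182 for Psma5, 45.6 ± 1.30 for Psma3, 124.5 ± 4.95 for Psma4 and 47.9 ± 0.342 for Psme2 (mean ± SD, n = 2). Psme2 was at 5.53 ± 0.385 before, and its partner Psme1 is at 74.9 ± 1.19.

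Copies were set beside their subunit genes for the genotype difference too, without a test of copy against gene. Psme2b, named after its values were seen, fell with a log2 ratio of -0.35 (standard error 0.10, edgeR adjusted p = 0.0442) where Psme2 had -0.14 (standard error 0.22). Gm9575, a processed pseudogene of Psmc1 also named after its values were seen, fell with -0.51 (standard error 0.12, edgeR adjusted p = 0.0162) where Psmc1 had -0.05 (standard error 0.08). Gm8394 had -0.29 (standard error 0.09, edgeR adjusted p = 0.0730) where Psma5 had -0.08 (standard error 0.14). Gm6542, the closest copy of the called gene Psma4, had 647 and 401 reads in WT and 682 and 931 in Sox17eKO, a log2 ratio of -0.18 (edgeR adjusted p = 0.273). Psma4 with Gm6542 added went from 124.5 ± 4.95 to 102.5 ± 1.88 TMM-scaled CPM per kilobase. Gm13835, Gm5422 and Gm7776, the closest copies of Psma3, Psmd2 and Psme1, had log2 ratios of -0.19, -0.20 and -0.04, and none passed. A730017L22Rik, the closest match of Psmd11, went the other way at 0.55 (standard error 0.25, edgeR adjusted p = 0.208). Over all genes tested, 1.22% were called lower. The 10 members with at least 10% of stretches shared had a median log2 ratio of -0.09 and the 36 others one of -0.15.

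**Figure D4:**
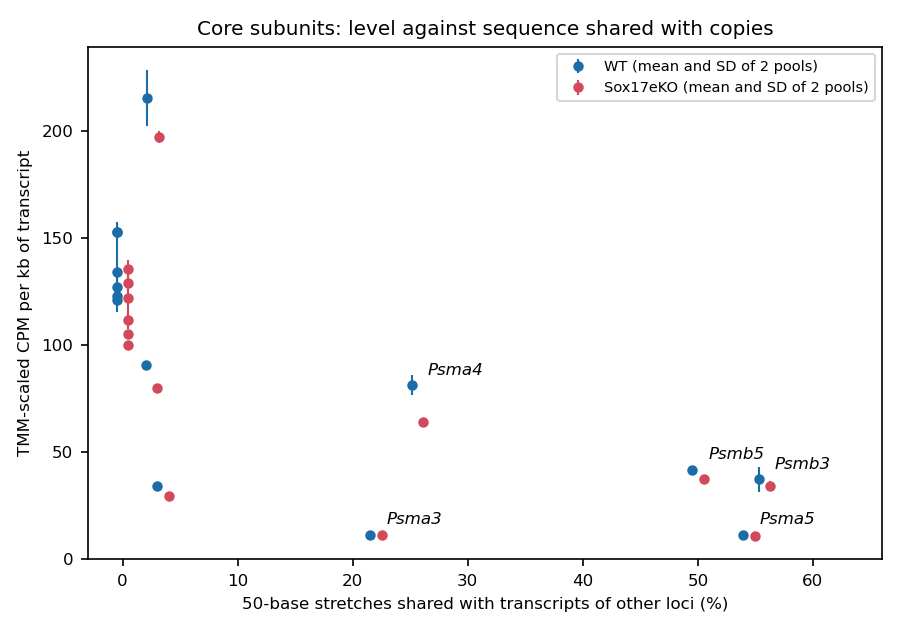
Level per kilobase of transcript (TMM-scaled CPM, mean and SD of 2 pools) of the 14 constitutive core genes against the percentage of 50-base stretches shared with transcripts of other loci; WT in blue and Sox17eKO in red are drawn slightly left and right of the true share. In WT the 5 genes with 22.02% or more lie at 81.2 or lower, and the genes at 0 lie at 99.8 or higher in both genotypes.

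Since most members had the same sign, their promoters were read for 2 motifs. RefSeq windows on GRCm38, from 250 bases before the start site to 50 after it, were found for 40 of the 48 genes (43 windows) and not for Psma8, Psmb1, Psmb2, Psmb7, Psmc3, Psmd3, Psmd7 and Psmg2. The antioxidant response element core TGACNNNGC, the kind of element the Nfe2l1 product binds, was searched on both strands. It occurred in 6 of the 43 windows (13.95%) and in 12.39% of all 32851 windows. CCAAT, which the factor NF-Y binds, occurred on either strand in 32.6% of the member windows and 37.4% of all windows. A match of letters is not a binding site. The genes with the first motif were Psmb5, Psmb6, Psmc6, Psmd9, Psmd12 and Psme4, and neither called gene was among them. The 250 bases before the start are shown for Psmb5 (chr14:54617996-54618245, minus strand) and Psmb6 (chr11:70525107-70525356, plus strand), the catalytic genes among these, with the motif in capitals.
Psmb5: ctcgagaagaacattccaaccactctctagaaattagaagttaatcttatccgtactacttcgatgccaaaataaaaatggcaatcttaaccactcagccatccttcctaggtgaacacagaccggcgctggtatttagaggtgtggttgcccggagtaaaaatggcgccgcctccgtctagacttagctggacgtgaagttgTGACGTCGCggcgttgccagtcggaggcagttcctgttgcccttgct
Psmb6: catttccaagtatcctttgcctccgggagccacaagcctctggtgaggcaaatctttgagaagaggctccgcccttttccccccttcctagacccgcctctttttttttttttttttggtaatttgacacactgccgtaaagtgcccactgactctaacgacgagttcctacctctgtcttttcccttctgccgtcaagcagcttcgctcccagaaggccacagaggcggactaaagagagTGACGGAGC
The genes carrying the motif had log2 ratios from -0.21 (Psmc6) to 0.12 (Psme4).

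Marker sums of other cell types stood beside these results as follows. Fits were lower in Sox17eKO for all 14 erythroid markers in the table. Over all genes tested the share of lower fits was 51.8%, which also stands beside the marker counts below. The erythroid markers had a median exonic length of 1234 bp, and 77.7% of protein-coding genes of up to 2581 bp had a lower fit. Their sum was 2810 and 3752 TMM-scaled CPM in WT and 1902 and 2503 in Sox17eKO. The sums did not overlap between the genotypes, and they differed widely within each. Cardiomyocyte markers summed to 24872 and 23978 in WT and 36199 and 37003 in Sox17eKO, mostly through Ttn, and their median log2 ratio was 0.00. Endothelial markers summed to 805 and 823 in WT and 744 and 798 in Sox17eKO. Smooth muscle markers, 3 of 4 with a lower fit and a median of -0.17, summed to 1860 and 1892 in WT and 1704 and 1648 in Sox17eKO. The 3 epicardial markers all had a lower fit and summed to 232 and 251 in WT and 215 and 201 in Sox17eKO. Outflow mesenchyme markers went the other way, at 3494 and 2884 in WT and 4236 and 3931 in Sox17eKO. Hbb-y, Nppa, Tie1, Cnn1 and Upk3b were called lower among all these markers, and Ttn, Pdgfra and Vcan higher. Over all genes tested, 1.22% were called lower and 4.13% higher. With the length and span trend removed, Tie1, Upk3b and Ttn stayed called (edgeR adjusted p = 0.0282, 0.0497 and 8.0e-08). The calls of Hbb-y, Nppa, Cnn1, Pdgfra and Vcan ended (edgeR adjusted p = 0.140, 0.209, 0.0750, 0.217 and 0.0606). The part of these cell types in the levels of the proteasome genes was not tested.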

How the data were processed

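The authors deposited raw counts of reads per Ensembl gene. TopHat2, HTSeq and mm10 appear in the submitters' processing notes, with the annotation release and strand setting not given in the sources used here. Per the labels' protocols, libraries were strand-specific total RNA. Of 45706 genes, 45143 matched a GENCODE M21 symbol (GRCm38). HTSeq's closing lines, which name no gene, entered no total and no test. They held 20.4% to 34.1% of unique reads as lying in no feature.

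Genotypes were compared with edgeR 4.0.16 (R 4.3.3, quasi-likelihood, robust, prior count 0.125) with TMM factors, genotype as the only term and Benjamini-Hochberg adjustment over the 16570 genes that passed filterByExpr. Calls are adjusted p under 0.05, intervals are 95%, and a log2 ratio is the fitted log2 fold change. Standard errors are that value over the square root of F. P-values measure the spread between pools of hearts, and pools of a genotype differed beyond counting noise (chi-square over its degrees of freedom 4.93 and 6.70).

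The members and lists were chosen with earlier results of these data known. Every member could be named, and those with the smallest p, the longest and shortest, the catalytic genes and the activators are given in full. Alternatives were DESeq2 1.42.0, limma-voom (limma 3.58.1), other scalings and filters, a replicate block, each library left out, and trends on length or GC removed (mgcv 1.9.3). The GC trend, on transcript sequence, and the steps on copies were added after seeing the data. Scripts were tested on simulated data.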

Additional observations from a re-analysis of the deposited data

How the results depend on the processing

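Of the genes tested, 886 were called. The count was 390 with DESeq2, 517 with limma-voom, 1364 with no filter on low counts, 149 with the length and span trend removed, 1118 (496 lower) with the transcript GC trend removed, and 103 to 970 with single libraries left out (103 without WT replicate 2, 289 without Sox17eKO replicate 1). Members called lower numbered 2, against 1 with DESeq2, library size scaling or limma-voom, 0 with the length and span trend removed, 15 with the transcript GC trend removed, and 0 to 2 with single libraries left out. Deviations of same-numbered pools were hardly correlated (-0.032). With 2 pools per genotype, this value does not settle whether replicate numbers pair the pools. With no filter on low counts 3 members were called lower, Psma4, Psma6 and Psme3 (edgeR adjusted p = 0.0443 for Psme3). With a replicate block 1684 genes and 9 members were called, and with replicate block and length trend together 453 genes and 2 members.

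The members' median log2 ratio of -0.14 became -0.11 with library size scaling, -0.080 with the length trend removed (-0.079 with the replicate block too), and -0.17 to -0.13 with single libraries left out. Its rank correlation with exonic length was 0.22 to 0.32 with single libraries left out, and -0.25 with the length trend removed, with or without the replicate block. It was 0.19 with the GC trend removed and 0.23 on the length of the longest transcript. The members' median WT level was 35.2 TMM-scaled CPM per kilobase of exonic length, 57.2 per kilobase of the longest transcript and 35.9 with the closest copy's reads added. With 1 library left out, the lone pool of that genotype is assumed to vary like the others. The Sox17 value was -1.29 to -1.12 with single libraries left out.

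Signs turned for the following members. Library size scaling gave log2 ratios of 0.00096 for Psma3, 0.022 for Psmc2 and 0.0073 for Psmd2, and the GC trend gave -0.024 for Psmf1 and -0.0099 for Psmg1. Removing the length trend gave 0.034 for Psma5, 0.012 for Psmb5, 0.047 for Psmc1, 0.050 for Psmd10, 0.017 for Psmd12, 0.0081 for Psmd2, 0.050 for Psmd7, -0.0053 for Psme4 and -0.017 for Psmf1. With the replicate block added these were 0.048 for Psma5, 0.010 for Psmb5, 0.044 for Psmc1, 0.062 for Psmd10, 0.019 for Psmd12, 0.0077 for Psmd2, 0.047 for Psmd7, -0.0056 for Psme4 and -0.027 for Psmf1. With single libraries left out, the ranges that held both signs were -0.11 to 0.051 for Psma3, -0.18 to 0.056 for Psma5, -0.27 to 0.048 for Psmb3, -0.32 to 1.53 for Psmb8, -0.12 to 0.089 for Psmc2, -0.20 to 0.049 for Psmd10, -0.099 to 0.0076 for Psmd12, -0.071 to 0.021 for Psmd2, -0.13 to 0.00044 for Psmd9, -0.069 to 0.10 for Psmf1, -0.079 to 0.073 for Psmg1 and -0.074 to 0.26 for Psmg3. The cause was not tested. Psma4 and Psma6 were lower under all 16 alternatives, and past the threshold in 12 and 8. With 2 pools per genotype, an exact permutation test of one value cannot go below 0.333.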
